A study of Mus musculus with 15 samples.

Results

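Transcript levels were examined for the 9 genes through which cells receive and limit interferon signals: the receptor genes Ifnar1, Ifnar2, Ifngr1 and Ifngr2, the Janus kinase genes Jak1, Jak2 and Tyk2, and the feedback inhibitor genes Socs1 and Socs3. They were taken by symbol from both tables of normalized counts, 9 of the 34432 genes listed in each, and all 9 had enough reads to be tested in both experiments. The cells were CT26, a mouse colon carcinoma line, and the study asked what loss or inhibition of PRMT1, an enzyme that methylates arginine residues of proteins, does to the interferon response of tumor cells. In the knockdown experiment, 3 libraries of CT26 cells stably carrying a tet-on hairpin against Prmt1 (shPrmt1), given doxycycline (DOX) for 3 days, were compared with 3 libraries of control knockdown cells (shControl). The labels give no treatment for either of these groups, so whether the shControl cells received DOX is not given in the sources used here, and a single hairpin stands for the loss of PRMT1. In the inhibitor experiment, wild-type CT26 cells received vehicle or the PRMT1 inhibitors MS023 or GSK3368715 at 6 µM for 48 hours, with 3 libraries each.

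Interferons act on neighbouring cells through paired receptor chains that have no enzyme activity of their own. IFNAR1 and IFNAR2 form the receptor of type I interferons and are bound inside the cell by TYK2 and JAK1, while IFNGR1 and IFNGR2 form the receptor of interferon gamma and are bound by JAK1 and JAK2. Once a ligand brings the chains together, the kinases phosphorylate STAT proteins, which move to the nucleus and switch on interferon-stimulated genes, SOCS1 and SOCS3 among them, and the SOCS proteins then bind kinases or receptors and shut the signal down.

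The number of reads on genes, recovered from the deposited values, ran from 17284091 to 29233738 in the 6 knockdown libraries and from 40119305 to 93697833 in the 9 inhibitor libraries. Prmt1 itself was at 5601 to 5717 normalized counts in shControl and 669 to 761 in shPrmt1 libraries, and inhibitor libraries (14064 to 16057) overlapped with vehicle libraries (15133 to 16107). Of 8 epithelial marker genes, 2 (Krt18 and Krt20) averaged 10 normalized counts or more in both control groups, with means of 572 and 178 in shControl and 941 and 389 in vehicle libraries (Krt18 and Krt20 in this order). Cdx2, an intestinal transcription factor gene, was low but above 0 in all 15 libraries (6.70 in shControl, 15.5 in vehicle), Epcam was at 0 in all 15, Cdh1 was at 0 in 11, and all 4 mesenchymal markers were expressed. The summed level of the epithelial markers was 541 to 661 normalized counts in shPrmt1 against 724 to 810 in shControl libraries, and 1760 to 1851 under MS023 and 1408 to 1609 under GSK3368715 against 1245 to 1415 in vehicle libraries. Krt18 carried most of this (431 in shPrmt1, 1372 under MS023), while Krt20 was at 173 and 405. The summed level of the mesenchymal markers overlapped between each treated group and its controls, but Vim made up most of it (68130 in shControl, 64325 in shPrmt1). For 3 of these 4 markers every shPrmt1 library lay above every shControl library, while 38% of all genes tested had groups apart. Means went from 3504 to 3986 for Cdh2, 11030 to 13829 for Fn1 and 2116 to 4207 for Col1a1, the widest ratio. Under MS023, 1 of the 4 was apart from vehicle, against 44.5% of all genes tested: Col1a1, lower (18543 to 13071). Under GSK3368715 it was 0 of 4, against 27.7%. The part of these markers in the results was not tested. Of 7 leukocyte and macrophage markers, 0 reached 10 normalized counts in a control group, and their summed level stayed between 1.11 and 30.6 normalized counts per library. Among 23 ligand genes, 16 had 0 reads in all 15 libraries, including Ifng. Ifnb1, which was singled out after its values were seen, had 1 read over the shControl and 3 reads over the shPrmt1 libraries, and means of 9.23 ± 1.53, 14.3 ± 1.49 and 17.6 ± 7.36 normalized counts (SD, n = 3) in the vehicle, MS023 and GSK3368715 libraries, from 26, 51 and 56 reads. The series design calls the 3 libraries of each group biological replicates without further detail, so p-values measure the spread between these libraries. In bulk RNA, fewer expressing cells and less RNA per cell cannot be told apart.

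The 9 genes lie on 6 chromosomes of mm10. Ifnar2 (91372783 to 91405589), Ifnar1 (91485238 to 91507441) and Ifngr2 (91547072 to 91565623) stand in a row on the plus strand of chromosome 16, with Il10rb, another class II cytokine receptor gene, between the first pair at 91406164 to 91425834. Socs1 is on the same chromosome at 10782240 to 10785536, on the minus strand. Ifngr1 lies on chromosome 10 (19591949 to 19610229, plus strand), Jak1 on chromosome 4 (101152367 to 101265282, minus strand), Jak2 on chromosome 19 (29251828 to 29313080, plus strand), Tyk2 on chromosome 9 (21104068 to 21131243, minus strand) and Socs3 on chromosome 11 (117966079 to 117970047, minus strand). The identifiers of the genes that the results turn on are ENSMUSG00000028530 for Jak1, ENSMUSG00000032175 for Tyk2, ENSMUSG00000038037 for Socs1 and ENSMUSG00000053113 for Socs3.

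The sequences upstream of the start sites of 4 genes are shown because the values below turn on them: Socs1 and Socs3 for the inhibitors, Jak1 and Tyk2 for the kinases. They are from RefSeq on GRCm38.p6, all on the minus strand and written 5′ to 3′. Each stops at the RefSeq start, or before it where an annotated exon begins. They lie at chr16:10785537-10785786 for Socs1, chr11:117969452-117969616 for Socs3, chr4:101265283-101265473 for Jak1 and chr9:21131276-21131525 for Tyk2. Capitals mark matches to the letters of the interferon-stimulated response element core (GAAANNGAAA) or of the gamma-activated site (TTCNNNGAA, or TTCNNNNGAA with a wider spacing), searched on both strands.
Socs1: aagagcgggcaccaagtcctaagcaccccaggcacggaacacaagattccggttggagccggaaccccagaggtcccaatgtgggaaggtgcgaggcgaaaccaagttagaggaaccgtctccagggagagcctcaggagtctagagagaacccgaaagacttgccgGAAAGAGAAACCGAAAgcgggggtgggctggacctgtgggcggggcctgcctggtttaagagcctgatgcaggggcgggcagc
Socs3: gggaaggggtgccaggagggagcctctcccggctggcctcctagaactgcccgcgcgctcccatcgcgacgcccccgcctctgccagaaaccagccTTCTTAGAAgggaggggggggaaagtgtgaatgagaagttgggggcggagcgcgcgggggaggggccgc
Jak1: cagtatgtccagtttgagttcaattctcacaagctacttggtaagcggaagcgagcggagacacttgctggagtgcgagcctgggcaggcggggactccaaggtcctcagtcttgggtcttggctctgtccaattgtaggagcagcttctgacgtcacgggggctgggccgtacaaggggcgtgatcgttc
Tyk2: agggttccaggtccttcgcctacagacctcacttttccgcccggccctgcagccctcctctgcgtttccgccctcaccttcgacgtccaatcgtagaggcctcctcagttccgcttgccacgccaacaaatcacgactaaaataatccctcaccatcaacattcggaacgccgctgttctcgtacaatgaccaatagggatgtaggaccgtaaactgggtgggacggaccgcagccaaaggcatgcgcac

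The Socs1 sequence held a pair of overlapping response element cores, GAAAGAGAAA at -83 to -74 and GAAACCGAAA at -77 to -68 from the RefSeq start. This core occurs in 3.44% of the 32851 promoter windows of 300 bases, which run from 250 bases before to 50 after each start. The Socs3 sequence held a gamma-activated site, TTCTTAGAA at -154 to -146, letters found in 8.3% of all windows. Among the receptor genes, the same letters occurred in Ifnar1 as TTCACGGAA across the start (-5 to 4) and in Ifnar2 as TTCCTGGAA at -214 to -206, and the wider spacing, found in 6.95% of all windows, occurred in Ifngr2 as TTCCCGGGAA at -91 to -82. The windows of Ifngr1, Jak1, Jak2 and Tyk2 held none of the 3 patterns. These are letter matches only, and the Socs3 stretch printed above, cut short where an annotated exon begins, lies inside the longest annotated gene body.

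To compare levels between the genes, normalized counts were divided by the length of all annotated exons in kb. In vehicle cells Jak1 stood highest at 1205 ± 108 (SD, n = 3) normalized counts per kb, followed by Jak2 at 981 ± 79.1 and, further down, by Ifngr1 at 567 ± 15.6, Ifnar1 at 519 ± 9.04, Ifngr2 at 367 ± 47.3 and Ifnar2 at 366 ± 31.3. Socs3 (278 ± 12.8), Tyk2 (182 ± 6.68) and Socs1 (118 ± 9.91) were the lowest. The libraries of neighbours in this order overlapped only between Ifngr2 and Ifnar2. Thus Jak1, whose kinase serves both receptors, had the highest level per kb, and Tyk2 the lowest of the kinase genes.

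In shControl cells the order per kb was close to that in vehicle cells, with Jak2 (431 ± 22.5) ahead of Jak1 (351 ± 27.5), then Ifngr1 (176 ± 4.69), Ifnar1 (155 ± 8.15), Ifngr2 (121 ± 21.8), Socs3 (120 ± 14.8), Ifnar2 (98.2 ± 10.2), Tyk2 (44.8 ± 6.0) and Socs1 (35.0 ± 4.93). Here the library ranges of Ifngr2 and Socs3, of Socs3 and Ifnar2, and of Tyk2 and Socs1 overlapped. Both experiments therefore placed Jak1 and Jak2 on top and Tyk2 and Socs1 at the bottom. The tables of the experiments were normalized separately, so the size of a value in one is not comparable with the other.

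**Figure D1:**
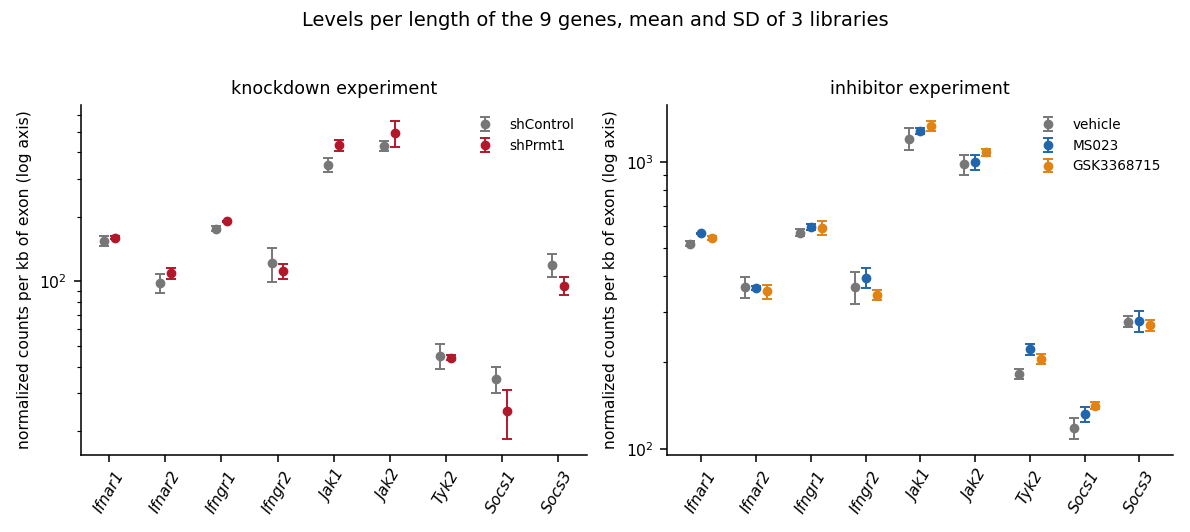
Mean normalized counts per kb of annotated exon (log axis) of the 9 genes in each group, with the SD of 3 libraries as bars, for the knockdown experiment (left) and the inhibitor experiment (right). Jak1 and Jak2 are the highest and Socs1 the lowest in every group, with Jak1 at 1205 and Socs1 at 118 in vehicle cells.

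Of the 9 genes, 1 changed after knockdown of Prmt1. Jak1 rose 1.23-fold, while the receptor genes differed from shControl by at most 0.16 on the log2 scale and both SOCS genes had lower means. In limma on the log2 of the normalized count + 1, with Benjamini-Hochberg adjustment over 11485 genes, 1 of 9 was called, close to the 14.7% of all genes tested that were called. The median log2 fold change of the 9 genes was 0.05 and that of all genes tested -0.0036, with median absolute values of 0.16 and 0.17. The groups did not overlap for 3 of the 9 (Ifngr1, Jak1 and Socs1), against 38% of all genes tested.

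Among the receptor genes, Ifnar1 was at 913, 970 and 873 normalized counts in shControl cells and at 951, 968 and 934 after knockdown. The ranges overlapped, with a log2 fold change of 0.05 and a 95% interval of -0.11 to 0.21. Ifnar2 ranged from 292 to 360 and from 350 to 387, again overlapping, with an interval of -0.08 to 0.40. Ifngr1, the ligand-binding chain for interferon gamma, was at 516, 492 and 493 in shControl and 541, 545 and 545 in shPrmt1 libraries. Every shPrmt1 library lay above every shControl library, but the difference of 0.12 (interval -0.05 to 0.29) was not called, with an adjusted p of 0.305 by limma. Ifngr2, the signalling chain, was the most variable receptor gene, ranging from 371 to 534 in shControl and from 385 to 450 in shPrmt1 libraries. Its interval of -0.42 to 0.21 allows a decrease of up to 1.34-fold. With 0 of the 4 receptor genes called by limma, 0 also had an unadjusted p under 0.05, and edgeR and DESeq2 called 0.

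Jak1, the kinase that both receptors use, was at 2729, 2541 and 2332 normalized counts in shControl cells and at 2900, 3288 and 3181 after knockdown. All shPrmt1 libraries were above all shControl libraries, with means of 3123 ± 200 (SD, n = 3) and 2534 ± 199. The log2 fold change was 0.30 (SE 0.08, 95% interval 0.12 to 0.48), with an adjusted p of 0.0384 by limma with Benjamini-Hochberg adjustment, and was called by edgeR and DESeq2 as well. The call lay close to the threshold, and it was kept in 10 of 16 alternatives. Without a trend in the variance the adjusted p from limma was 0.0825, and with libraries rescaled to the same upper quartile it was 0.0688. Without shControl replicate 1, 2 or 3, or shPrmt1 replicate 3, it was 0.0628, 0.104, 0.152 and 0.101, while the log2 fold change stayed between 0.24 and 0.36 in all alternatives.

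The other kinase genes were not called. Jak2, the partner of IFNGR2, was at 2058, 2284 and 2156 normalized counts in shControl and 2301, 2864 and 2256 in shPrmt1 libraries. Its highest value was in shPrmt1 replicate 2, the lowest shPrmt1 library lay inside the shControl range, and the log2 fold change was 0.18 (interval -0.04 to 0.41). Tyk2 ranged from 266 to 348 in shControl and from 294 to 309 in shPrmt1 libraries, with all shPrmt1 libraries inside the shControl range and an interval of -0.28 to 0.24.

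Socs1, which blocks JAK activity directly, was at 93.3, 93.6 and 118 normalized counts in shControl cells and at 85.7, 50.9 and 79.6 after knockdown, from 106, 130 and 107 and from 75, 42 and 78 reads. All shPrmt1 libraries were below all shControl libraries. The log2 fold change of -0.52 (SE 0.22, interval -1.02 to -0.02) was not called, with an adjusted p of 0.15 by limma, and 0 of 16 alternatives called it. Without shPrmt1 replicate 2, the library with the lowest value, it was -0.29. Socs3, the inhibitor best known for restraining IL-6 type cytokines, was at 389, 304 and 346 in shControl and 305, 252 and 269 in shPrmt1 libraries. The groups overlapped by a single library on each side, at 304 and 305. Its log2 fold change of -0.33 (interval -0.61 to -0.05) had an adjusted p of 0.112 by limma, and it passed the threshold in 1 of 16 alternatives, with the replicate number as a block (0.0396). Both genes thus had an unadjusted p under 0.05 in limma, as did 3 of all 9 genes and 31.2% of all genes tested, while edgeR and DESeq2 each gave 1 of them such a p and called 0. Relative to the shControl mean, shPrmt1 replicate 2 had the lowest log2 value of Socs1 (-0.98) and Socs3 (-0.45), and the highest of Jak1 (0.38) and Jak2 (0.40). Without this library, the log2 fold change was 0.26 for Jak1 (adjusted p = 0.0335 by limma), 0.074 for Jak2 and -0.26 for Socs3.

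**Figure D2:**
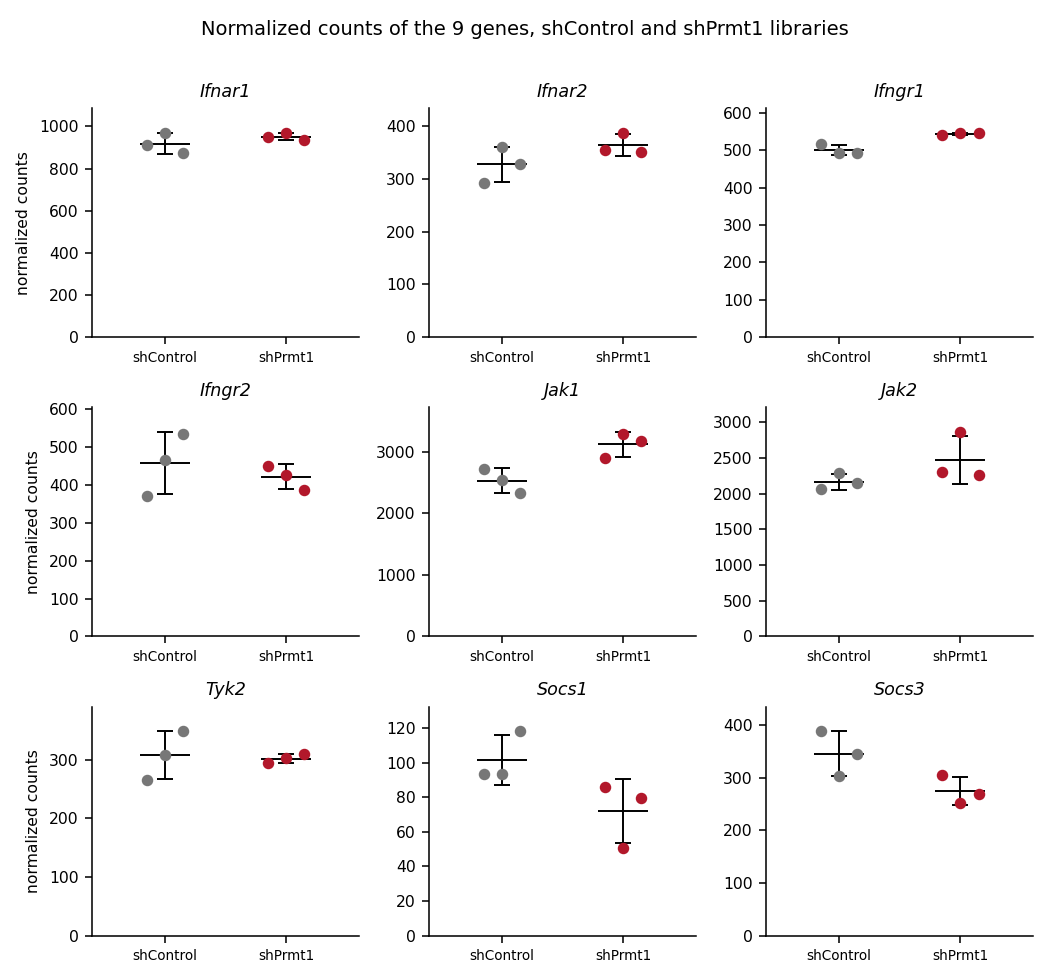
Normalized counts of the 9 genes in each shControl (grey) and shPrmt1 (red) library, with the group mean and SD of 3 libraries in black and axes from 0. The groups are apart for Ifngr1 and Jak1 (higher in shPrmt1) and Socs1 (lower), and overlap for the other 6 genes.

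Other genes of the same pathway were called in shPrmt1 cells, in lists to be read against the 14.7% called over all genes tested. In the list of 7 STAT and IRF9 genes, 6 were tested, of which 2 rose and 1 fell. Irf9, which binds DNA in the complex that type I interferons activate, rose from 528 ± 10.9 to 822 ± 9.65 normalized counts (SD, n = 3), a log2 fold change of 0.64 (SE 0.07, adjusted p = 0.000955 by limma). Its partner Stat2 rose by 0.60, while Stat6, which serves IL-4 and IL-13, fell by 0.48 on the log2 scale. Of 10 other inhibitors tested, 1 rose: Usp18, which holds IFNAR2 in check, went from 329 ± 36.5 to 1015 ± 35.3 normalized counts (log2 fold change 1.63, SE 0.10). These 4 calls were made in 16 of 16 alternatives each. The medians were -0.05 for the STAT and IRF9 genes and 0.12 for the other inhibitors, against -0.0036 for all genes tested.

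Among the other receptors that signal through JAKs, 7 of 13 were tested, and 2 of the 6 whose shControl libraries all passed the filter on low values were called higher. Il6st, which encodes the shared gp130 chain, rose by 0.44 and Il4ra by 0.54 on the log2 scale. Il13ra1 was at 3.52, 2.88 and 1.11 normalized counts in shControl and 10.3, 13.3 and 15.3 in shPrmt1 libraries. It passed the filter only through the shPrmt1 group, so its call (2.05) is a description and is left out of this count, and it could not be tested with a shPrmt1 library left out. Of the other SOCS family genes, 5 of 6 were tested, with Socs4 higher (0.36) and Socs2 lower (-0.54), and a median of 0.02. The call of Socs2 was made in 8 of 16 alternatives, and was lost without a filter on low values (adjusted p = 0.0755 by limma), with libraries rescaled to the same total (0.0508) and without a trend (0.0513). Il10rb, which lies between Ifnar2 and Ifnar1, was at 244 to 255 in shControl and 290 to 316 in shPrmt1 libraries, apart from each other but not called (0.28, adjusted p = 0.0730 by limma), and passed the threshold in 2 of 16 alternatives. Leaving out shControl replicate 1 ended the calls of all 5 genes called in this paragraph (adjusted p = 0.0529 to 0.167 by limma), and that of replicate 2 or 3 ended those of Il13ra1, Socs2 and Socs4 (0.0541 to 0.133). Those of Il4ra were also lost without shControl replicate 2 (0.0654) or shPrmt1 replicate 3 (0.0538), and that of Socs2 without shPrmt1 replicate 1 or 3 (0.102 and 0.0821). The genes of the ubiquitin ligase that SOCS proteins recruit (Elob, Eloc, Cul5, Cul2 and Rnf7) had 0 of 5 called by limma, edgeR or DESeq2 after knockdown, and 1 with an unadjusted p under 0.05 in each.

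Of the 9 genes, 1 changed under MS023. Tyk2, the kinase of IFNAR1, rose 1.22-fold, and the other 8 genes differed from vehicle by 0.16 or less on the log2 scale, with 8 of all 9 estimates above 0. The share called over all 13014 genes tested was 27.9%, so 1 of 9 was not more than in the transcriptome at large. The median log2 fold change of the 9 genes was 0.09 and that of all genes 0.0028, with median absolute values of 0.09 and 0.18. Libraries did not overlap with vehicle for 3 of 9 genes (Ifnar1, Ifngr1 and Tyk2, all higher), against 44.5% of all genes.

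Tyk2 was at 1304, 1231 and 1219 normalized counts in the vehicle libraries and at 1501, 1472 and 1596 in the MS023 libraries. All MS023 libraries were higher than all vehicle libraries, with means of 1523 ± 65.0 (SD, n = 3) and 1252 ± 45.8. The log2 fold change was 0.28 (SE 0.06, 95% interval 0.14 to 0.42), with an adjusted p of 0.0079 by limma with Benjamini-Hochberg adjustment. It was called in 20 of 20 alternatives, with adjusted p between 7.0e-04 and 0.0391 by limma, edgeR or DESeq2 and a log2 fold change of 0.25 to 0.34. Jak1 (8161, 9604 and 8359 in vehicle, 9118, 9539 and 9171 under MS023) had its highest value in vehicle replicate 2, and its log2 fold change was 0.09 (interval -0.05 to 0.24). Without vehicle replicate 2 it was 0.17 and passed the threshold (adjusted p = 0.0427 by limma). Jak2 overlapped with vehicle, with an interval of -0.13 to 0.17.

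Among the receptor genes under MS023, Ifnar1 was the tightest: the vehicle libraries were at 3037, 3142 and 3070 normalized counts and the MS023 libraries at 3339, 3353 and 3343. The groups did not overlap, and the log2 fold change was 0.12 (SE 0.05, interval 0.02 to 0.22), with an adjusted p of 0.0812 by limma. It passed the threshold in 1 of 20 alternatives, with libraries rescaled to the same total (0.15, adjusted p = 0.0301 by limma). Ifngr1 ranged from 1572 to 1661 in vehicle and from 1664 to 1740 under MS023, just apart, with an interval of -0.07 to 0.21. Ifnar2 and Ifngr2 overlapped with vehicle, with intervals of -0.17 to 0.16 and -0.10 to 0.32. By limma 0 of the 4 receptor genes were called and 1 (Ifnar1) had an unadjusted p under 0.05, as in edgeR and DESeq2. Over all 9 genes 2 had such a p in limma, against 40.2% of all genes tested.

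The SOCS genes were not called under MS023. Socs1 was at 321, 333 and 376 normalized counts in vehicle and 358, 406 and 388 under MS023, and the lowest MS023 library lay inside the vehicle range. The log2 fold change was 0.16 (interval -0.05 to 0.37). Socs3 was at 778, 845 and 784 in vehicle and at 729, 829 and 863 under MS023, with MS023 libraries on both sides of the vehicle range and an interval of -0.18 to 0.19. Limma, edgeR and DESeq2 each gave 0 of these genes an unadjusted p under 0.05.

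Of the other pathway genes under MS023, Il10rb rose from 890 ± 32.7 to 1163 ± 45.5 normalized counts (SD, n = 3), a log2 fold change of 0.39 (SE 0.06, adjusted p = 0.0016 by limma), while its neighbours on chromosome 16 (Ifnar2, Ifnar1 and Ifngr2) were not called. Of 9 other JAK-coupled receptor genes tested, 8 had all vehicle libraries above the filter on low values, and 2 of these were called higher, against 27.9% of all genes. Il4ra rose by 0.76 and Il13ra1 by 1.35, while Epor, at 4.89, 14.9 and 13.3 normalized counts in vehicle and 36.2, 40.5 and 30.03 under MS023, passed the filter only through the treated groups, so that its call (1.72) is a description and is not counted. Of 6 genes tested from the STAT and IRF9 list, 3 rose: Stat2 by 0.66, Stat3 by 0.42 and Stat5b by 0.17. Of 10 other inhibitors, 4 rose: the phosphatase gene Ptpn6 by 0.62, Pias1 by 0.31, Pias3 by 0.35 and Usp18 by 0.45. Lif, a ligand of the gp130 family, fell by 0.39. The medians were 0.15 for these 8 other JAK-coupled receptors, 0.25 for the STAT and IRF9 genes and 0.10 for the other inhibitors, against 0.0028 for all genes. All these calls held in every alternative in which the gene was tested, except those of Stat5b and Usp18, which were kept in 9 and 10 of 20. Without vehicle replicate 2, the log2 fold change of Usp18 was 0.27 (adjusted p = 0.0955 by limma). Its call was also lost without vehicle replicate 3 (0.0913) or MS023 replicate 1, 2 or 3 (0.0820, 0.0979 and 0.111), and that of Stat5b without any 1 library other than vehicle replicate 2 or MS023 replicate 1 (0.0507 to 0.154). Of the other SOCS family genes, 0 of 6 were called by limma, edgeR or DESeq2, with 2 at an unadjusted p under 0.05 in each. In the comparison of tools, DESeq2 but neither limma nor edgeR called Jak3, the remaining Janus kinase gene (0.33, adjusted p = 0.0386), Irf9 (0.26, 0.0386) and Ghr, the growth hormone receptor gene (0.20, 0.0355), higher and Rnf7 of the SOCS ubiquitin ligase lower (-0.22, 0.0314), while limma gave adjusted p of 0.0534 to 0.0648 for them. Over all 20 alternatives, 5 called Jak3, 4 Irf9, 9 Ghr and 2 Rnf7, and the estimate of Irf9 ran from 0.16 to 0.37.

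Under GSK3368715, 0 of the 9 genes were called by limma, edgeR or DESeq2, and each gave 3 of them an unadjusted p under 0.05. Over all 13014 genes, 9.64% were called by limma and 26.1% had an unadjusted p under 0.05. The point estimates ran from -0.09 (Ifngr2) to 0.26 (Socs1) on the log2 scale, all 3 kinase genes were above 0, and the median was 0.06 against 0.0004 for all genes. Ifnar1, Tyk2 and Socs1 did not overlap with vehicle, all higher, 3 of 9 against 27.7% of all genes.

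Tyk2 was at 1473, 1357 and 1410 normalized counts in the GSK3368715 libraries, each above the highest vehicle library (1304). The log2 fold change was 0.18 (SE 0.06, interval 0.04 to 0.32), with an adjusted p of 0.108 by limma. Jak1, at 9249, 9682 and 9992, was above vehicle replicates 1 and 3 and overlapped with replicate 2. Its log2 fold change of 0.15 (interval 0.01 to 0.29) had an adjusted p of 0.174 by limma, and without vehicle replicate 2 it was 0.22 and passed the threshold (adjusted p = 0.0304 by limma). Jak2, at 5544, 5260 and 5516, overlapped with the same vehicle library, and its log2 fold change was 0.14 (interval -0.01 to 0.29).

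Socs1 was at 424, 403 and 406 normalized counts under GSK3368715 and at 376 in the highest vehicle library. The groups were apart, the log2 fold change was 0.26 (SE 0.09, interval 0.05 to 0.47), and the adjusted p was 0.108 by limma, with 0 of 20 alternatives past the threshold. Socs3 (752 to 816) overlapped with vehicle, with an interval of -0.22 to 0.14. Ifnar1, at 3275, 3190 and 3196, lay above the highest vehicle library (3142) by a narrow margin, with an interval of -0.04 to 0.16. Ifnar2, Ifngr1 and Ifngr2 overlapped with vehicle, and no receptor interval reached beyond a change of 1.23-fold in either direction.

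Among other pathway genes under GSK3368715, Il4ra rose by 0.59 and Il13ra1 by 0.91 on the log2 scale, and Stat2 by 0.59, in all 20 alternatives. Stat3 (0.30), Epor (1.61, with the same limit as under MS023), Ptpn6 (0.36) and Pias3 (0.25) were also higher and Lif lower (-0.33), in 19 of 20, 16 of 19, 15 of 20, 9 of 20 and 13 of 20 alternatives. Stat3 was lost without GSK3368715 replicate 3 (adjusted p = 0.0661 by limma), and the other 4 without several single libraries, with adjusted p between 0.0501 and 0.125. These were GSK3368715 replicate 1 or 2 for Epor, vehicle replicate 2 or 3 or GSK3368715 replicate 1 or 2 for Ptpn6, vehicle replicate 3, MS023 replicate 2 or any GSK3368715 replicate for Lif, and any library but vehicle replicate 2 and GSK3368715 replicate 2 for Pias3. Usp18 (0.51, adjusted p = 0.0540) and Il10rb (0.20, adjusted p = 0.0710) were not called by limma, and passed the threshold in 3 and 1 of 20 alternatives, DESeq2 among them for both. The estimate of Usp18 ran from 0.33 without vehicle replicate 2 to 0.69 without vehicle replicate 1. By list, 2 of 8 other JAK-coupled receptors (without Epor), 2 of 6 STAT and IRF9 genes and 2 of 10 other inhibitors were called higher, against 9.64% of all genes called, with medians of 0.15, 0.28 and 0.08 against 0.0004 for all genes.

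**Figure D3:**
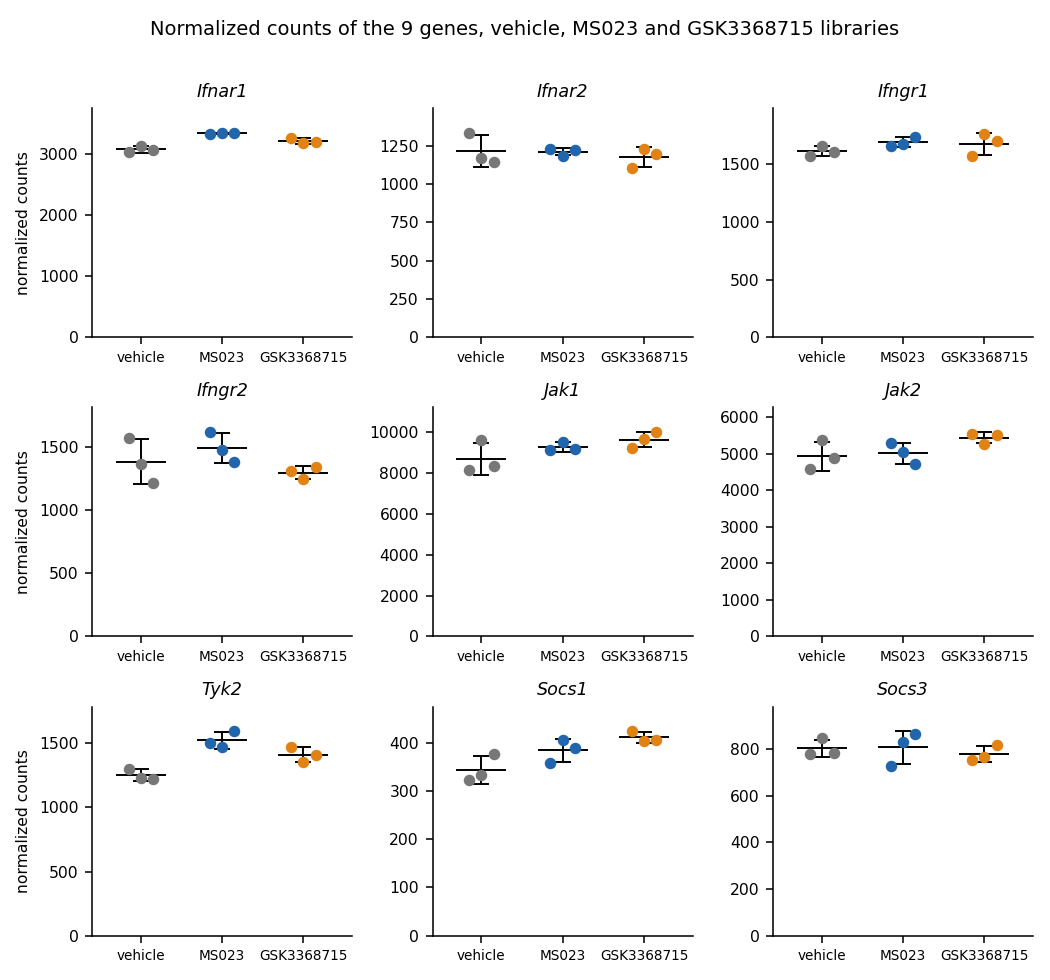
Normalized counts of the 9 genes in each vehicle (grey), MS023 (blue) and GSK3368715 (orange) library, with the group mean and SD of 3 libraries in black and axes from 0. Tyk2 lies above vehicle under both inhibitors, with means of 1252 (vehicle), 1523 (MS023) and 1413 (GSK3368715), as does Ifnar1, and Socs1 lies above vehicle under GSK3368715 (at least 403 against at most 376).

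The inhibitors were given at the same dose and time, and the 9 genes were compared between them directly in the same fit, as 9 differences within the 13014 over which p-values were adjusted. By limma, edgeR and DESeq2, 0 of 9 genes were called, and 0.515% of all genes tested were called by limma. Limma gave 0 of the 9 an unadjusted p under 0.05, against 13.2% of all genes tested, and edgeR and DESeq2 each gave 1. Tyk2 was 0.11 lower under GSK3368715 than under MS023 on the log2 scale, with an interval of the difference of -0.25 to 0.03. Ifngr2 had the widest difference, -0.20 (interval -0.41 to 0.01), with 1616, 1471 and 1379 normalized counts under MS023 and 1307, 1241 and 1337 under GSK3368715, which did not overlap. For Jak2 the difference was 0.12 (interval -0.03 to 0.27) and for Socs1 0.10 (interval -0.11 to 0.31). Ifnar1 was apart too, with all GSK3368715 libraries below all MS023 libraries, a difference of -0.05 and an interval of -0.16 to 0.05. That makes 2 of 9 genes without overlap, against 21.4% of all genes.

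**Figure D4:**
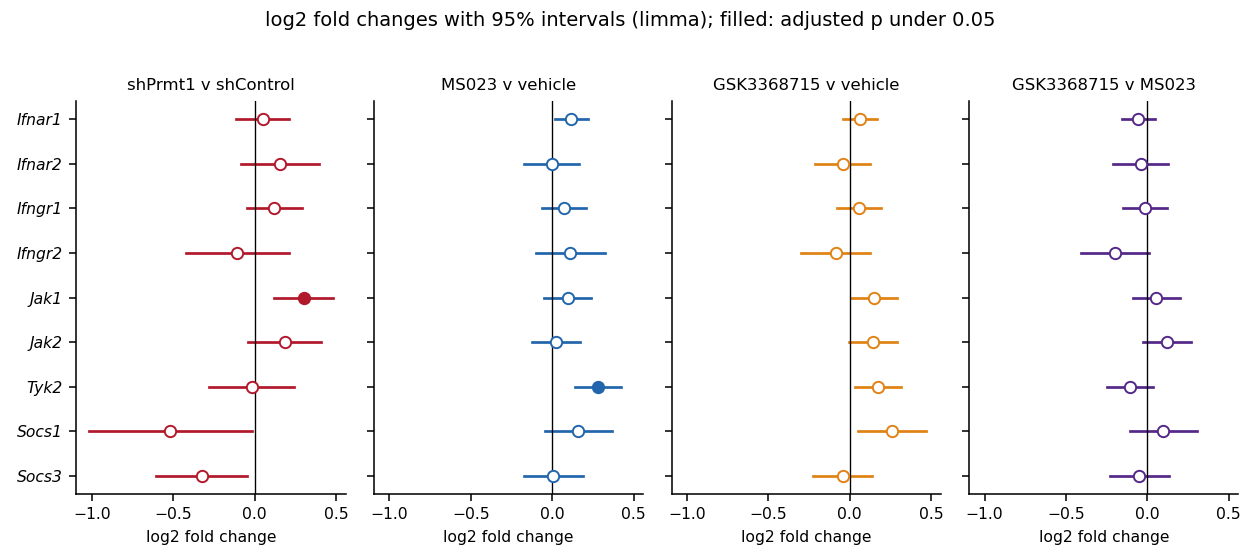
Estimates (points) and 95% intervals (lines) of the log2 fold change of the 9 genes in each comparison by limma, filled where the adjusted p was under 0.05. The filled points are Jak1 in shPrmt1 cells (0.30) and Tyk2 under MS023 (0.28), and the remaining intervals reach from -1.02 (Socs1, knockdown) to 0.47 (Socs1, GSK3368715).

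Set side by side, Jak1 was called in the knockdown, Tyk2 under MS023 and none of the 9 genes under GSK3368715, while the estimates furthest from 0 in the knockdown and under GSK3368715 were those of Socs1. Jak1 was at 0.30 in the knockdown, 0.09 under MS023 and 0.15 under GSK3368715. Tyk2 was at -0.02, 0.28 and 0.18 in the same order, and Jak2 at 0.18, 0.02 and 0.14. Socs1 was lower in all 3 shPrmt1 libraries than the shControl mean (-0.52) and higher in all inhibitor libraries than the vehicle mean (0.16 and 0.26). Ifnar1 was slightly above its controls in each (0.05, 0.12 and 0.06), as was Ifngr1 (0.12, 0.07 and 0.05). The values under MS023 and GSK3368715 share the 3 vehicle libraries and are not independent of each other, and the knockdown and inhibitor values come from separate normalizations, so differences between the experiments were not tested.

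**Figure D5:**
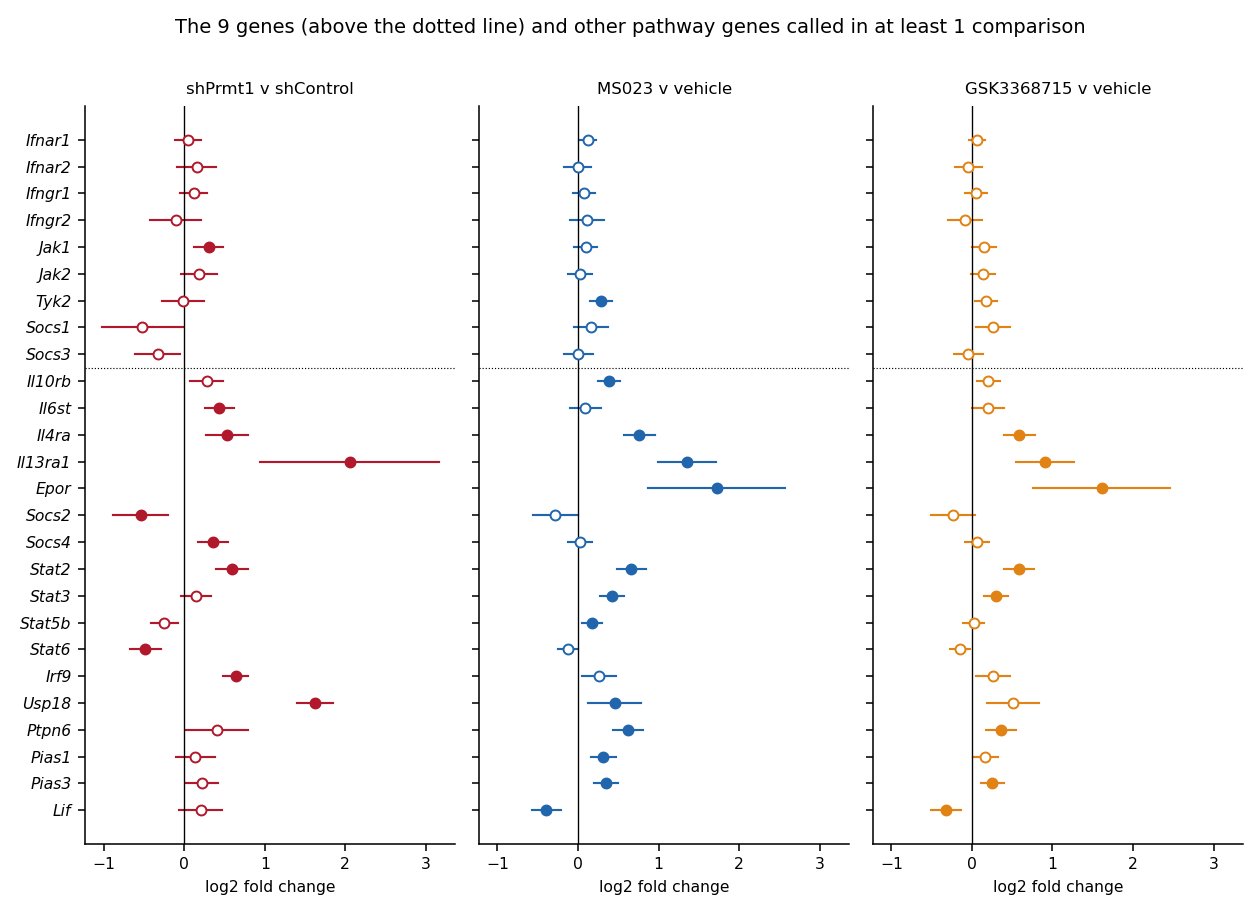
Log2 fold changes with 95% intervals of the 9 genes (above the dotted line) and of other reported pathway genes called in at least 1 comparison (below), filled where the adjusted p was under 0.05 by limma. Usp18 (1.63) in the knockdown and Il13ra1 (1.35) under MS023 lie further from 0 than any of the 9 genes.

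The genes most like Jak1 over the 15 libraries, by the root mean square difference of the log2 values taken relative to the own control mean, were Ppp2r3a and Ddx6 (0.07 each), among 10011 genes searched whose median difference from Jak1 was 0.24. For Tyk2 they were Blvrb and Unc119 (0.07 each), against a median of 0.24. Some reads of the 9 genes may belong to others: Ifnar2 shares 315 bases of exon with Gm21970 on the same strand, Tyk2 shares 554 with the antisense gene 1700084C06Rik, and Jak1 shares 4 with Raver2 on the opposite strand. Gm21970 had 0 reads in the knockdown libraries and at most 5 over the 3 libraries of an inhibitor group. 1700084C06Rik is not among the genes with deposited values, so it could not be analysed. As the use of strand in the counting is not given in the sources used here, its reads and those of Tyk2 cannot be told apart.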

How the data were processed

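RNA of CT26 cells was sequenced as paired-end reads of 150 bp on a NextSeq 500 after Kapa mRNA library preparation. The authors quantified the reads with Salmon 1.4.0 on mm10 with default parameters and used DESeq2, whose version is not given in the sources used here. What the authors deposited per gene is a normalized signal, the read count over the DESeq2 size factor of the library, here called normalized counts. In each library 100% of the 34432 values were whole multiples of the value of 1 read (tolerance 0.01 reads), so whole reads were recovered. They are rounded Salmon estimates, without molecular identifiers. The authors also deposited tables of their own comparisons (fold changes and p-values), which were not used.

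A gene entered a fit if 3 or more of its libraries held 10 normalized counts or more. The log2 of the normalized count + 1 was tested in limma (lmFit, then eBayes with a variance trend). Tests were two-sided, and p-values were adjusted by Benjamini-Hochberg over every gene in the fit, with a threshold of 0.05. This scale understates the change of low genes. The knockdown was fitted on 6 libraries and the inhibitors on 9 in a single fit. Alternatives changed the pseudocount (0.5 or 5), the filter (none, or 50 normalized counts), the scaling (same upper quartile or same total) and the variance trend (none), added replicate numbers as a block, restricted the inhibitor fit to the pair of groups compared, used edgeR and DESeq2 on the recovered reads, or left out each library. In a fit with a library left out, a group of 2 is assumed to vary like the others. The 9 genes were reported whatever their values; a gene of the pathway lists was named where it was called in at least 1 comparison with controls, and the 2 most alike genes for each of the 9 that was called. The 9 genes and the lists were chosen with earlier results of these data known. A gene of the lists is not reported here and was left out of the list counts. The methods were tested on simulated data, whose outcome is not given here and on which no result rests. Lengths and positions are from GENCODE M21 (34372 of 34432 IDs matched), and promoter sequences of all 9 genes from RefSeq. The tools were DESeq2 1.42.0, edgeR 4.0.16 and limma 3.58.1 under R 4.3.3.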

Additional observations from a re-analysis of the deposited data

Results flagged for a closer look

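Among the 9 genes and the pathway genes called in at least 1 comparison with controls, 4 differed in direction between comparisons. In each, every treated library of one comparison lay above its control mean, and every treated library of another lay below. Differences between the knockdown and the inhibitors were not tested, since these experiments were normalized separately. Socs1 had a mean log2 deviation of -0.52 from shControl after knockdown, 0.16 from vehicle under MS023 and 0.26 under GSK3368715. Ifngr2 was at -0.11 after knockdown, 0.11 under MS023 and -0.087 under GSK3368715, and so differed in direction between the inhibitors too. That difference, tested in the inhibitor fit, was -0.20 (interval -0.41 to 0.01) and was not called by limma in the fit as reported or in any of 20 alternatives. Over all alternatives, Ifngr2 ran from -0.25 to 0.015 after knockdown, 0.022 to 0.21 under MS023 and -0.18 to 0.0077 under GSK3368715. Stat5b was at -0.24 after knockdown and 0.17 under MS023. Lif was at 0.20 after knockdown, -0.39 under MS023 and -0.33 under GSK3368715. After knockdown Lif was not called (adjusted p = 0.274 by limma), and its estimate ran from 0.11 to 0.26 over 16 alternatives, with 0 calls.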

How the results depend on the processing

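The call of Tyk2 under MS023 was made in all 20 alternatives, and that of Jak1 after knockdown in 10 of 16. The number of the 9 genes called after knockdown was 0 with libraries rescaled to the same upper quartile or without a trend, and 0 to 1 with each library left out. Under MS023 it was 2 with libraries rescaled to the same total (Ifnar1 added) and 1 to 2 with each library left out (Jak1 added without vehicle replicate 2), and under GSK3368715 it was 0 to 1. Between the inhibitors it was 0 throughout. The cause of these changes was not tested.

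The fits reported above treated the libraries as unpaired, since the labels give a replicate number and no pairing. Deviations of same-numbered libraries correlated at 0.061 to 0.12 in the knockdown, each above those of all 6 different-numbered pairs (-0.094 to 0.033), a hint of pairing from the data and not from the design. In the inhibitor experiment they correlated at -0.10 to 0.11, and different-numbered ones at -0.13 to 0.17. With the replicate number as a block, 2671 genes were called after knockdown in place of 1684, and 2 of the 9 in place of 1 (Socs3 added, adjusted p = 0.0396 by limma). Between the inhibitors the block gave 4 in place of 67 calls.

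Over all genes, leaving out each library gave 652 to 2472 calls after knockdown. These were 652, 883 and 723 without shControl replicate 1, 2 and 3, and 2472 and 1072 without shPrmt1 replicate 2 and 3. The recovered reads of shPrmt1 replicate 2 differed from replicates 1 and 3 by a chi-square per degree of freedom of 23.5 and 22.4. It was 4.37 between shPrmt1 replicates 1 and 3, and 4.31 to 8.94 between shControl libraries. Leaving out each library gave 2409 to 3726 calls under MS023 (2409 without MS023 replicate 2) and 586 to 1274 under GSK3368715 (586 without vehicle replicate 3). Fitting only vehicle and GSK3368715 gave 597 calls in place of 1254. The direct comparison of the inhibitors was the least stable, with 38 calls without a filter, 8 without a trend, 377 by DESeq2 and 2 to 114 with each library left out.

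Estimates near 0 changed sign. Rescaling to the same total gave 0.014 for Tyk2 after knockdown, 0.031 for Ifnar2 under MS023 and 0.0025 for Prmt1 under GSK3368715, and rescaling to the same upper quartile gave 0.056 for Ifnar2 under MS023 and 4.4e-05 for Prmt1 under GSK3368715. With each library left out, the log2 fold changes ran from -0.25 to 0.015 for Ifngr2 and -0.12 to 0.075 for Tyk2 after knockdown. Under MS023 they ran from -0.047 to 0.066 for Ifnar2, -0.030 to 0.084 for Jak2 and -0.045 to 0.077 for Socs3. Under GSK3368715 they ran from -0.089 to 0.024 for Ifnar2, -0.18 to 0.0077 for Ifngr2 and -0.039 to 0.031 for Prmt1. Between the inhibitors they ran from -0.073 to 0.0051 for Ifnar2, -0.051 to 0.031 for Ifngr1 and -0.12 to 0.0017 for Socs3. None of these was called.

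Among the 9 genes, depth limited Socs1 most, with 42 to 130 reads per knockdown library. Il13ra1 had 1 to 15.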
